A study of Mus musculus with 6 samples.

Results

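The genes described here carry glucose from its entry into the cell to pyruvate and lactate, and through the pentose phosphate pathway. They were chosen by name, as 37 genes for glucose transporters, the enzymes of glycolysis, lactate dehydrogenases, lactate transporters, the pyruvate dehydrogenase complex with its kinases, and the pentose phosphate enzymes. Of these, 33 had at least 1 probe named for them, out of 19057 genes with a probe, and 28 were measured, out of 10024. The samples were 3 of mouse embryonic stem cells (ESC, strain label R1/E) and 3 of mouse spermatogonial stem cells (SSC, strain label C57BL/6), each on 1 single-colour Illumina bead array. R1/E is an established embryonic stem cell line, so the ESC samples represent 1 line and differ from the SSC samples in strain as well as in cell type. No treatment is labelled for either group, and the age of the animals, the isolation of the SSC and the culture of either group are not given in the sources used here. The labels number the replicates 1 to 3 and do not say whether each came from its own culture or animal. The p-values therefore set each difference only against the spread within these groups, and that spread may be technical. In the moderated test used below, that spread is partly shared over all probes tested.

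Glycolysis splits glucose into pyruvate and yields ATP without oxygen. Lactate dehydrogenase then turns pyruvate into lactate, which monocarboxylate transporters carry across the cell membrane, while the pyruvate dehydrogenase complex sends pyruvate into mitochondrial oxidation. The pentose phosphate pathway branches off at glucose 6-phosphate: its oxidative arm makes NADPH, and its non-oxidative arm makes ribose 5-phosphate for nucleotides and returns the surplus carbon to glycolysis. Most steps have several isoenzymes, encoded by separate genes, that differ between tissues, and in the testis some are restricted to later germ cells.

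Transcripts of most glycolytic enzymes were lower in SSC than in ESC. Among the 28 genes measured, 18 fell and 7 rose in SSC, and 3 did not pass the test, which was limma's moderated test with Benjamini-Hochberg adjustment over all probes kept, at an adjusted p under 0.05. Of all measured genes 74.4% were called in either direction, 36.5% as lower and 37.9% as higher. A fall of at least 2-fold was called for 15 of the 28, against 15.8% of all genes, and a rise of at least 2-fold for 3 of the 28, against 17.5% of all genes. The median difference, SSC minus ESC on the log2 scale, was −1.36 over these 28 genes and 0.0036 over all genes. All levels below are log2 intensities after background correction and quantile normalization, and all differences are SSC minus ESC on that scale. Unless an SD is named, the error of a gene's difference is limma's moderated SE, with 3 arrays per group. Its variance is drawn toward that of all probes kept. The error of a shift in an isoenzyme ratio is instead the plain SE from 3 arrays per group. These kinds of error are not comparable. Fewer cells of a type and less RNA per cell cannot be told apart in such samples.

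**Figure D1:**
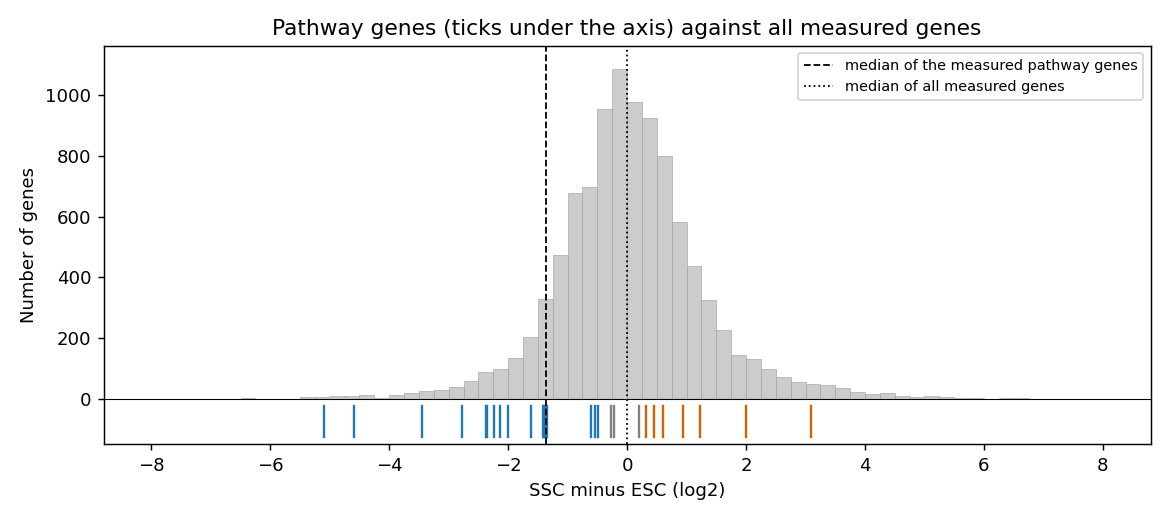
Number of measured genes (vertical axis) by SSC minus ESC difference on the log2 scale (horizontal axis). The 28 pathway genes are ticks under the axis, blue where called lower in SSC, orange where called higher and grey where not called; their median is −1.36 and that of all 10024 genes 0.0036.

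The 7 genes that rose were Pfkfb2, Pgk1, Ldhb, Ldhc, Pdk3, Rpia and Rpe. For glucose uptake and glycolysis, 16 of 20 listed genes were measured, and 11 fell, 2 rose and 3 did not pass the test. For lactate and pyruvate handling, 7 of 10 were measured, with 4 lower and 3 higher. For the pentose phosphate pathway, 5 of 7 were measured, with 3 lower and 2 higher. To count as measured, a probe needed a detection p-value below 0.01 on 3 or more of the 6 arrays. Of the 28 genes, 26 were detected on all 6 arrays, and of these 17 fell, 6 rose and 3 did not pass the test, against 38.2% called lower and 33.3% higher among all genes detected on every array. The other two, Slc2a3 and Rpe, passed the filter only through the group in which they were bright, so their difference was fixed by the filter. No probe is named for Hk2, Gpi1, Eno1 and G6pdx in the annotation used, and these 4 genes were not analysed here. Pfkfb3, Slc16a1, Slc16a3, Pdk2 and Pgd had probes, but none passed the detection filter. The values of the 2 groups did not overlap for 26 of the 28 genes, against 76.9% of all genes.

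**Figure D2:**
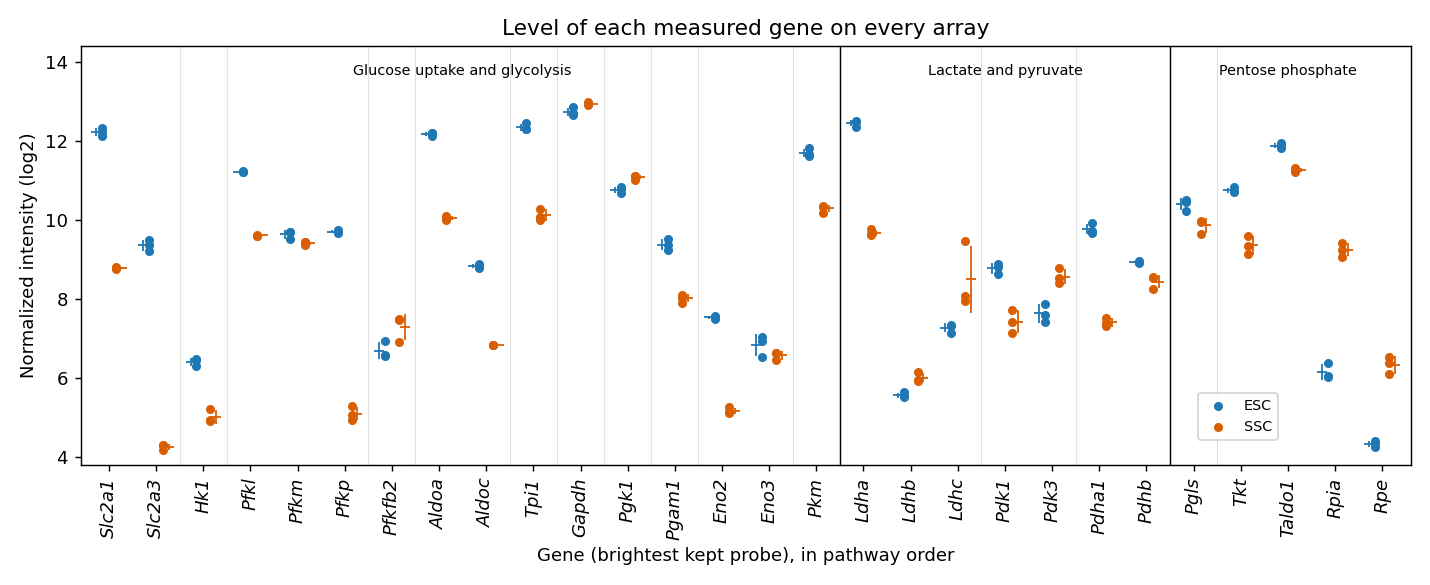
Normalized log2 intensity (vertical axis) of the 28 measured genes in pathway order (horizontal axis), with 1 point per array, ESC in blue and SSC in orange, and the mean and SD of each group beside the points. The SSC points lie below the ESC points at the 11 glycolytic genes called lower, and above them at Rpia and Rpe on the right; the points of Slc2a3 in SSC and of Rpe in ESC were not well above background.

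In the same samples, markers of the sampled cell types, of other cell types and of proliferation also differed. Over the measured genes of the list for ESC, 8 of 8 were lower in SSC, 4 of them detected on no SSC array. Of all genes 36.5% were called lower and 37.9% higher. Genes detected in only 1 group passed the filter through that group, so their direction was fixed by it. Of 12 markers of undifferentiated spermatogonia 10 were higher, Zbtb16, Gfra1 and Nanos2 among them, and 2 were not called. Of these 10, 3 were detected on no ESC array. Of 11 listed Sertoli cell markers, 8 were measured, with 6 higher and 2 lower in SSC, and their summed background-corrected intensity was 1333 to 1562 on the ESC arrays and 3024 to 3275 on the SSC arrays. Of the 6 higher, 4 (Amh, Fshr, Sox9 and Gata4) were detected on all SSC arrays and on no ESC array. These 4 passed the filter only through SSC. Of 14 listed fibroblast and peritubular myoid markers, 13 were measured, 10 higher and 2 lower. Of the 10, 6 were detected on no ESC array, and of the 2 lower, 1 was detected on no SSC array. The sum of the 13 was 4110 to 4342 in ESC and 9214 to 10338 in SSC. Summed levels of Leydig cell markers (3 higher and 1 lower of 4 measured) were 195 to 204 in ESC and 481 to 657 in SSC. Those of macrophage markers (1 higher of 2 measured) were 12.97 to 25.5 and 34.0 to 52.3. Those of endothelial markers (1 higher and 1 lower of 3 measured) were 705 to 809 and 52.0 to 89.4. Of those higher, 2 Leydig, 1 macrophage and 1 endothelial marker were detected on no ESC array. The endothelial marker that was lower was detected on no SSC array. All 6 measured proliferation markers of 8 listed were lower in SSC, and their sum fell from between 4963 and 5153 to between 1883 and 2232. The part of these cell types and of proliferation in the values below was not tested.

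The first step is glucose uptake. Slc2a1 encodes the transporter GLUT1, which supplies glucose to most proliferating cells. Its level read 12.32, 12.22 and 12.12 in ESC and 8.75, 8.77 and 8.82 in SSC. All SSC arrays lay far under the ESC arrays, and the difference of −3.44 ± 0.11 (n = 3 per group), a 10.9-fold lower level, had an adjusted p of 3.16e-11. Slc2a3 encodes GLUT3, a transporter of high glucose affinity known from neurons and early embryos. It read 9.49, 9.36 and 9.22 in ESC and was not well above background on any SSC array. Its transcript was at least 23.5-fold lower in SSC, where the bound sets the mean of the ESC arrays against the dimmest signal still detected on each SSC array. The brightness deposited before normalization fell from a mean of 721.1 to 99.7, which lies at the background of the arrays, whose medians were 106.1 to 108.7. Such bounds hold under this background correction only: the fitted difference was −2.89 in the authors' processed table, smaller in size than the bound of 4.56 on the log2 scale.

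The promoters of Slc2a1, Ldha, Pgk1 and Rpia are shown, since the pathway is known for shared control by hypoxia-inducible factors. These bind a core of ACGTG or GCGTG, and only ACGTG was searched. The sequences are RefSeq's on build GRCm38.p6, from 250 bases before to 50 after the start, read 5′ to 3′ on the strand of the gene. Capitals mark each ACGTG on either strand. Slc2a1 (chr4:119108495-119108794, + strand) and Ldha (chr7:46845554-46845853, + strand) are genes that fell, Pgk1 (chrX:106186850-106187149, + strand) is a trunk enzyme that did not fall, and Rpia (chr6:70792126-70792425, − strand) rose the furthest of the 28.
Slc2a1: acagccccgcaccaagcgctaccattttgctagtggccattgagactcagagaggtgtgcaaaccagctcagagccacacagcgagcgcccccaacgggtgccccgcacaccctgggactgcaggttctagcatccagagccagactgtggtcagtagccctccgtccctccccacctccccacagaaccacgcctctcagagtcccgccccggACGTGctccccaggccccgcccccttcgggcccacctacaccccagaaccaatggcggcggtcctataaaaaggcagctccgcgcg
Ldha: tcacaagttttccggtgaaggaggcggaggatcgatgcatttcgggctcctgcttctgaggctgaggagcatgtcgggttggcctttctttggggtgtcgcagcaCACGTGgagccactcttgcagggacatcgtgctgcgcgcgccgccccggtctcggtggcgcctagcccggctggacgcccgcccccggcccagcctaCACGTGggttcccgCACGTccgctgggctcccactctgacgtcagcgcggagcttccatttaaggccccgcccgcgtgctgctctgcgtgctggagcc
Pgk1: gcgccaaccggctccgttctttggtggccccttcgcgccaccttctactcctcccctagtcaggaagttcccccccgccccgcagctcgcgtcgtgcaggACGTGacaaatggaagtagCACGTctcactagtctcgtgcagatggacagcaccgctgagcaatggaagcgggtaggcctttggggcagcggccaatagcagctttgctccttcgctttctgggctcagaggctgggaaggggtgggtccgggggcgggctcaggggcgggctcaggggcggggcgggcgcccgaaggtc
Rpia: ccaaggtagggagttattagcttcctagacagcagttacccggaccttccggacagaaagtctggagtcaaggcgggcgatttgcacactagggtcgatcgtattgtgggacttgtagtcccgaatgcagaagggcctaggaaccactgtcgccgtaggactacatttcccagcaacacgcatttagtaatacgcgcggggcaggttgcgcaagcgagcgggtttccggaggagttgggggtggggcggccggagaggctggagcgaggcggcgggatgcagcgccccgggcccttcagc
The Slc2a1 promoter held 1 match, 36 bases before the start. The Ldha promoter held 5, of which 4 were the opposite strands of a pair of CACGTG hexamers, the E-box bound by Myc-type factors, and the other lay 34 bases before the start. Another promoter of Ldha in the table held 0. Pgk1, which was not lower in SSC, held 2 matches, at 150 and 131 bases before its start, and Rpia held 0. Since GCGTG was not searched, a count of 0 does not mean that the core is absent.

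Of the 37 genes, 36 had 1 or more promoters in the table, 54 in all, and Slc2a3 is named only. The 54 include promoters of listed genes that were not measured, unlike the promoters of measured genes set beside them. ACGTG stood in 23 of the 54 (42.6%), in 25.7% of the promoters of all measured genes and in 19.6% of all 32851 promoters. The hexamer CACGTG, which contains ACGTG on both strands, stood in 6 of the 54 (11.1%), against 10.2% for measured genes. The GC box GGGCGG stood in 57.4% of the 54 and in 63.2% for measured genes, and the octamer ATGCAAAT, which Oct4 binds, in 1 of the 54. At least 1 ACGTG was found for 8 of the 17 genes with a promoter entry that fell and for 3 of the 7 that rose. The median GC content was 60.7% in the 54 promoters and 61.0% for measured genes. These are matches of letters, counted on both strands without a test, and several promoters of a gene overlap.

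Hexokinase traps glucose in the cell as glucose 6-phosphate. Hk1, the broadly expressed form, read 6.45, 6.48 and 6.29 in ESC and 5.20, 4.92 and 4.91 in SSC, without overlap. The difference was −1.39 ± 0.13 (adjusted p = 4.80e-07), and it was −0.53 both without background correction and in the authors' processed table. Hk1 was dim on these arrays, at a mean unnormalized brightness of 160.5 in ESC and 121.6 in SSC.

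Phosphofructokinase catalyses the committed step of glycolysis, and its 3 isoenzymes differed among themselves. Pfkl, the liver type, read 11.21, 11.21 and 11.23 in ESC and 9.60, 9.61 and 9.60 in SSC. It was 3.05-fold lower in SSC, by a difference of −1.61 ± 0.11 (adjusted p = 2.98e-08). Pfkp, the platelet type, read 9.69, 9.67 and 9.73 in ESC and 5.28, 4.95 and 5.07 in SSC. All SSC arrays lay far lower, by −4.60 ± 0.12 (adjusted p = 4.81e-12) and by −2.92 in the authors' processed table. The other kept probe of Pfkp was undetected on the SSC arrays and passed the filter only through ESC, so its direction was fixed. It was at least 4.31-fold lower under this background correction only. In the authors' processed table it differed by −1.03, smaller in size than that bound of 2.11 on the log2 scale. Pfkm, the muscle type, lay at 9.70, 9.70 and 9.51 in ESC and 9.37, 9.43 and 9.43 in SSC. Its brightest probe did not pass the test (−0.22 ± 0.12, adjusted p = 0.0973), whereas its other kept probes did, at −0.60 and −0.42. Pfkm was called lower in 4 of 18 alternatives. Among them was the authors' processed table, where the same test gave its brightest probe −0.20 (adjusted p = 0.0189). Relative to Pfkm on the same array, Pfkp shifted down by 4.37 ± 0.14 between the groups, and relative to Pfkl by 2.99 ± 0.10. In the authors' processed table these shifts were smaller, at 2.72 and 1.41. Relative to Pfkm, Pfkl itself shifted by −1.38 ± 0.07.

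Fructose 2,6-bisphosphate, the strongest activator of phosphofructokinase, is made and removed by the bifunctional enzymes of the Pfkfb family. Pfkfb2, the form known from heart, was 6.94, 6.57 and 6.56 in ESC and 7.50, 7.46 and 6.90 in SSC. It rose by 0.60 ± 0.17 (adjusted p = 0.00638), although the lowest SSC array lay under the highest ESC array. Pfkfb3, whose product favours synthesis of the activator, was not well above background on any array.

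The enzymes that split and interconvert the sugar phosphates fell together. Aldoa, the widespread aldolase, read 12.12, 12.19 and 12.20 in ESC and 9.99, 10.05 and 10.09 in SSC (−2.13 ± 0.11, adjusted p = 2.27e-09). Aldoc, the brain aldolase, read 8.77, 8.82 and 8.88 against 6.84, 6.82 and 6.82 (−1.99 ± 0.11, adjusted p = 4.08e-09). Both fell, and the log2 ratio of Aldoa to Aldoc shifted by only −0.13 ± 0.04, by −0.087 without ESC replicate 2 and by −0.61 in the authors' processed table. Tpi1, which interconverts the triose phosphates, was 12.45, 12.30 and 12.30 in ESC and 10.28, 10.06 and 9.995 in SSC. Its difference of −2.23 ± 0.12 (adjusted p = 3.77e-09) stood beside −2.38 and −1.31 at its other kept probes.

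The next enzymes, at the first ATP-yielding stage, did not fall with their neighbours. Gapdh, which oxidises glyceraldehyde 3-phosphate, read 12.85, 12.65 and 12.71 in ESC and 12.92, 12.97 and 12.91 in SSC. Its difference was 0.20 ± 0.12 (adjusted p = 0.141), and this sign depends on the scaling, since it was −0.44 (adjusted p = 0.00509) when arrays were scaled on their medians. That was the only 1 of 18 alternatives to reverse the sign of Gapdh, and 3 called a rise. In the authors' processed table the rise was 0.19 (adjusted p = 0.0235). Before normalization its mean brightness was 8354 in ESC and 6408 in SSC. Pgk1, the X-linked phosphoglycerate kinase that makes ATP, was 10.83, 10.78 and 10.68 in ESC and 11.02, 11.11 and 11.11 in SSC. The SSC arrays all lay above the ESC arrays, by 0.32 ± 0.11 (adjusted p = 0.0229). That call was lost under scaling on array medians (0.13) and without ESC replicate 2 (0.31), ESC replicate 3 (0.27), SSC replicate 2 (0.31) or SSC replicate 3 (0.31). It was also lost when an adjusted p under 0.01 was required.

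Pgam1, Eno2 and Pkm, in the payoff stage that ends in pyruvate, were lower again. Pgam1, the mutase of 3-phosphoglycerate, read 9.23, 9.37 and 9.51 in ESC and 7.90, 8.03 and 8.11 in SSC (−1.36 ± 0.12, adjusted p = 4.88e-07). Eno2, the neuronal enolase, read 7.50, 7.53 and 7.56 against 5.11, 5.14 and 5.25 (−2.36 ± 0.11, adjusted p = 9.13e-10). Eno3, the muscle enolase, read 6.52, 6.94 and 7.04 against 6.64, 6.45 and 6.63, with overlap. Its difference of −0.26 ± 0.15 did not pass the test (adjusted p = 0.122), was −0.42 and called without ESC replicate 1 (adjusted p = 0.0130), and turned to 0.084 under scaling on array medians. Relative to Eno3, Eno2 shifted by −2.10 ± 0.16, and by −0.9995 in the authors' processed table. Pkm encodes the pyruvate kinases M1 and M2, which arise by alternative splicing. Its brightest probe read 11.66, 11.62 and 11.81 in ESC and 10.34, 10.17 and 10.35 in SSC (−1.41 ± 0.12, adjusted p = 2.28e-07). A dimmer kept probe of Pkm did not pass the test (−0.19 ± 0.13, adjusted p = 0.223), and the splice form that each probe reads is not known here.

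**Figure D3:**
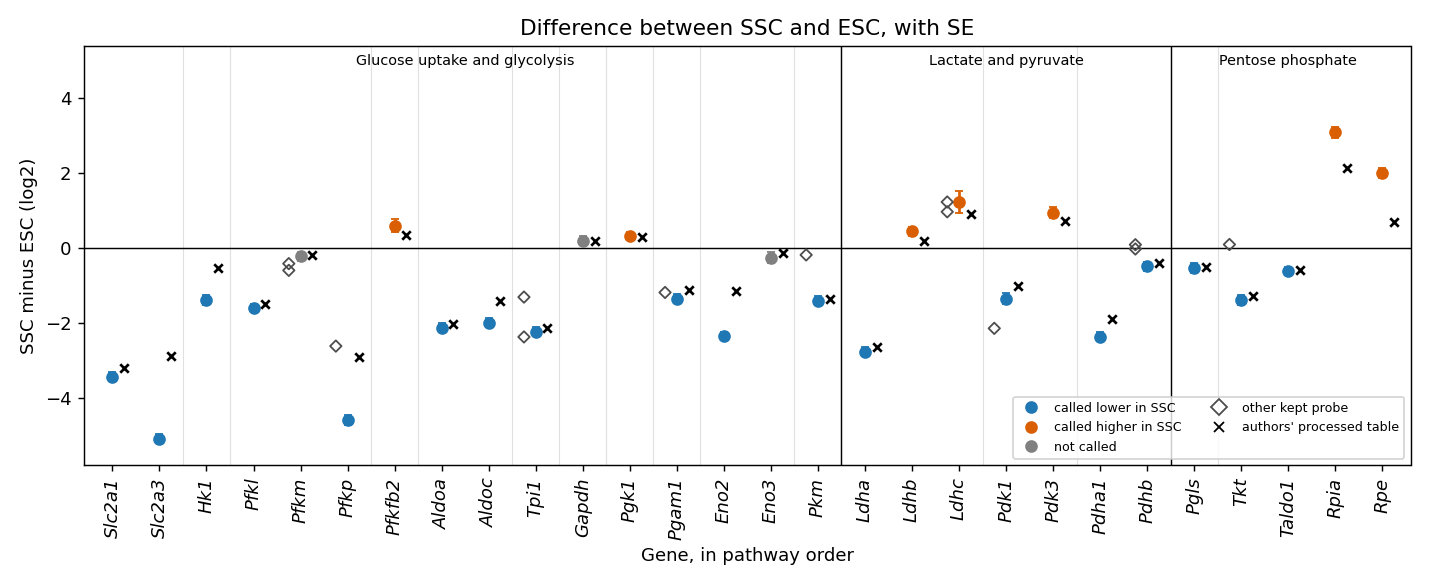
SSC minus ESC difference on the log2 scale (vertical axis) of each measured gene in pathway order (horizontal axis). Circles with SE bars are the brightest kept probe, coloured by call; open diamonds are other kept probes and crosses the authors' processed table, which gave the same sign for all 28 brightest probes.

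The genes of lactate dehydrogenase went opposite ways. Ldha, whose subunit favours the making of lactate, read 12.51, 12.36 and 12.47 in ESC and 9.64, 9.76 and 9.62 in SSC. It was 6.83-fold lower in SSC (−2.77 ± 0.12, adjusted p = 2.57e-10). Ldhb, the subunit known from heart, read 5.54, 5.51 and 5.63 in ESC and 5.95, 6.15 and 5.92 in SSC, a rise of 0.45 ± 0.12 (adjusted p = 0.00410) at a brightness close to background. The log2 ratio of Ldha to Ldhb shifted by −3.22 ± 0.05 between the groups.

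Ldhc encodes the subunit known from male germ cells, where it is abundant in spermatocytes and sperm. It read 7.35, 7.32 and 7.13 in ESC and 8.08, 7.95 and 9.47 in SSC. The SD was 0.12 in ESC and 0.85 in SSC, a spread that the moderated SE draws toward that of the other probes. The rise of 1.23 ± 0.30 (adjusted p = 0.00233) therefore rested in part on SSC replicate 3, and without that array it was 0.75 and still called (adjusted p = 4.40e-04). The other kept probes of Ldhc showed the same array on top, at 8.19 against 7.10 and 6.59, and at 7.19 against 5.90 and 6.32. Of 13 listed markers of spermatocytes and spermatids, 12 had a probe, and Ldhc was the only one measured: 11, including Sycp3, Dmc1, Tnp1, Prm1, Pgk2, Gapdhs and Pdha2, did not pass the detection filter. Relative to Ldhc, Ldha shifted by −4.00 ± 0.53, and Ldhb by −0.78 ± 0.55, which overlapped between the groups (exact two-sided permutation p = 0.30) and was −0.26 without SSC replicate 3. The transporters of lactate, Slc16a1 and Slc16a3, were not measured: the probe of Slc16a1 was not well above background on any array, and the 3 probes of Slc16a3 were so on at most 2 of the 6 arrays.

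**Figure D4:**
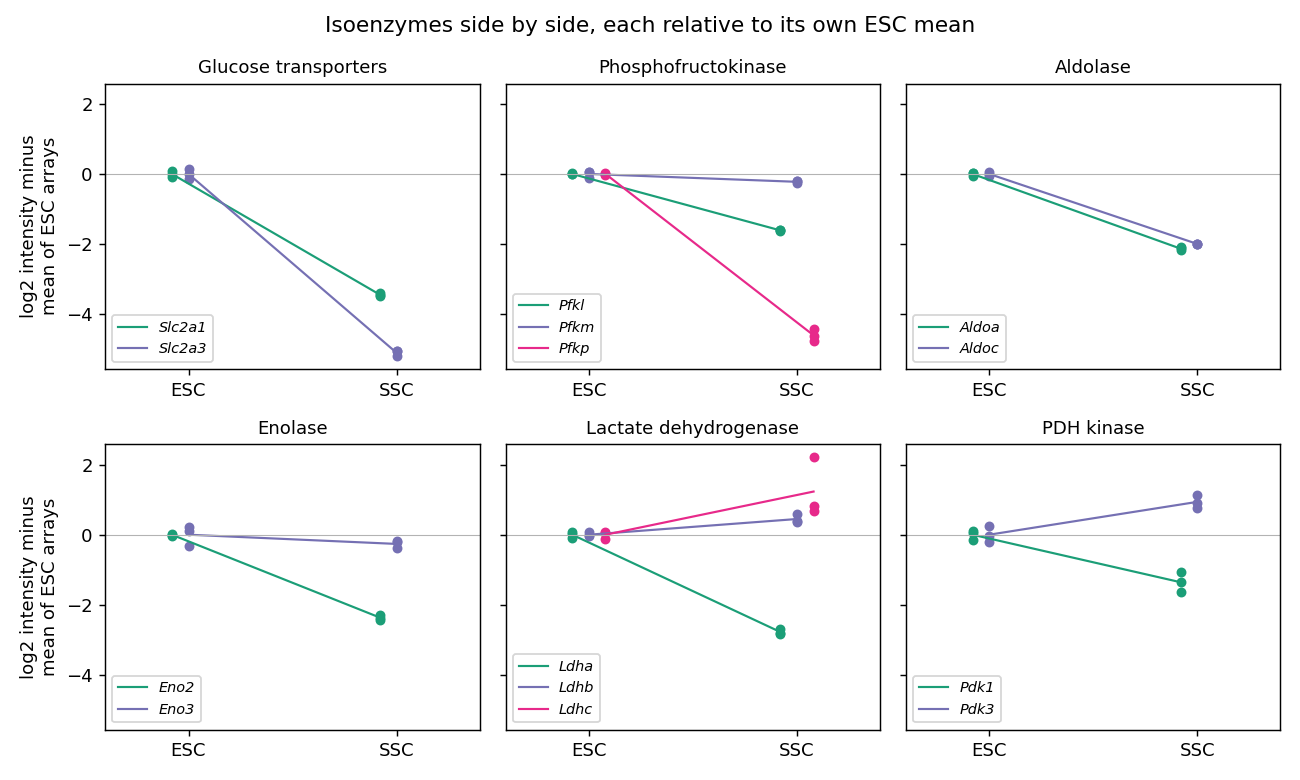
Log2 intensity on each array minus the mean of the gene's ESC arrays (vertical axis) in ESC and SSC (horizontal axis) for 6 families, with 1 point per array and a line joining group means. Ldha fell by 2.77 while Ldhb and Ldhc rose, and Pdk1 fell while Pdk3 rose. Pfkp fell by 4.60 while the brightest probe of Pfkm, at −0.22, did not pass the test. Other kept probes of Pfkm, not drawn here, were called lower at −0.60 and −0.42.

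Pyruvate enters mitochondrial oxidation through the pyruvate dehydrogenase complex. Pdha1, the X-linked alpha subunit of its first enzyme, read 9.73, 9.68 and 9.92 in ESC and 7.31, 7.39 and 7.52 in SSC, a 5.18-fold lower level (−2.37 ± 0.12, adjusted p = 1.98e-09). Pdhb, the beta subunit of the same enzyme, read 8.90, 8.95 and 8.94 against 8.24, 8.54 and 8.53 (−0.49 ± 0.12, adjusted p = 0.00283). Its other kept probes, at 0.086 and −0.029, did not pass the test, and the call of Pdhb was lost with the mean of its probes (−0.14).

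The pyruvate dehydrogenase kinases, which switch the complex off by phosphorylation, went opposite ways. Pdk1, known as a hypoxia-induced form, read 8.81, 8.89 and 8.62 in ESC and 7.13, 7.71 and 7.42 in SSC (−1.35 ± 0.15, adjusted p = 3.51e-06). The other kept probe of Pdk1 was detected on all 3 ESC arrays, enough to pass the filter, and on 1 SSC array. Its fall was at least 4.22-fold under this background correction only. In the authors' processed table it differed by −0.87, smaller in size than that bound of 2.08 on the log2 scale. Pdk3, the X-linked kinase, read 7.42, 7.59 and 7.88 in ESC and 8.40, 8.77 and 8.53 in SSC (0.94 ± 0.15, adjusted p = 7.35e-05). Relative to Pdk3 on the same array, Pdk1 shifted by −2.29 ± 0.21. Pdk2 was not well above background on any array.

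In the pentose phosphate pathway the enzymes of the non-oxidative arm split. Pgls, the lactonase of the oxidative arm, read 10.51, 10.22 and 10.46 in ESC and 9.95, 9.65 and 9.98 in SSC (−0.54 ± 0.13, adjusted p = 0.00279). Its groups did not overlap, and the other enzymes of that arm gave no value, since G6pdx had no named probe and Pgd was undetected. Tkt, the transketolase that moves 2-carbon units, read 10.74, 10.82 and 10.69 against 9.12, 9.35 and 9.59 (−1.40 ± 0.13, adjusted p = 8.71e-07). A dimmer kept probe of Tkt did not pass the test (0.092, adjusted p = 0.519) and was detected on 1 of the 3 ESC arrays. Taldo1, the transaldolase, read 11.95, 11.86 and 11.82 against 11.30, 11.20 and 11.28 (−0.61 ± 0.11, adjusted p = 2.81e-04).

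Rpia and Rpe, the isomerase and the epimerase of the pentose 5-phosphates, rose. Rpia makes ribose 5-phosphate, the sugar of nucleotides. It read 6.38, 6.04 and 6.03 in ESC and 9.24, 9.07 and 9.40 in SSC, so that each SSC array lay well above each ESC array. The difference of 3.09 ± 0.14, an 8.52-fold higher level (adjusted p = 5.12e-10), was the largest rise among the 28 genes, and it was 2.13 in the authors' processed table. Rpe, which interconverts ribulose and xylulose 5-phosphate, was detected on all 3 SSC arrays, at 6.09, 6.53 and 6.38, and on no ESC array. It was at least 2.52-fold higher in SSC, and the fitted difference was 0.70 in the authors' processed table, smaller than that bound of 1.33 on the log2 scale. Rpia and Rpe had 1 kept probe each, and a further probe of Rpe was not well above background on any array.

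Across the isoenzyme families, 10 of 17 listed pairs could be compared on the same arrays. The shift of the log2 ratio did not overlap between the groups in 9 of the 10, all but Ldhb and Ldhc, and in 8 of 9 without the pair of glucose transporters. Single genes had no overlap in 76.9% of cases, and the share for pairs of genes in general was not computed. Each of these 9 had an exact two-sided permutation p of 0.10, the smallest that 3 arrays against 3 can give, and 0.111 after Benjamini-Hochberg adjustment over the 10 pairs, so none can pass 0.05 in this design. For the pair of glucose transporters the shift was 1.66 ± 0.07 toward the Slc2a1 side, but Slc2a3 has only a bound in SSC, and the sign turned to −0.31 both without background correction and in the authors' processed table.

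A further list of 62 genes around the pathway had 55 with a probe and 30 measured, of which 16 fell, 7 rose and 7 did not pass the test in SSC, against 36.5% of all genes lower and 37.9% higher. Of the 16, 4 were detected on no SSC array, and of the 7 that rose 1 was detected on no ESC array, so that these passed the filter only through the brighter group. The median difference of the 30 was −0.43. Tktl1, a transketolase-like gene on the X chromosome, rose by 3.39 ± 0.15 (adjusted p = 3.52e-10), from 5.07, 5.11 and 5.50 in ESC to 8.42, 8.66 and 8.77 in SSC, opposite to Tkt. Pdp1, the phosphatase that reactivates pyruvate dehydrogenase, rose at least 4.85-fold under this background correction. It had a signal above background on only 1 ESC array, and its other kept probe differed by 0.72. Pdpr, a regulatory subunit of that phosphatase, rose by 1.44 ± 0.14, and G6pc3, a glucose 6-phosphatase, by 1.26 ± 0.17. Among those that fell, Gpd2, the mitochondrial glycerol phosphate dehydrogenase, went from 9.66, 9.67 and 9.50 to 6.96, 6.998 and 6.64 (−2.74 ± 0.13, adjusted p = 9.57e-10). Egln3, an oxygen sensor that is itself a target of hypoxia-inducible factors, went from 7.83, 7.50 and 7.52 to 4.85, 5.43 and 5.31 (−2.42 ± 0.16).

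Prps1 and Prps2, which use ribose 5-phosphate to make the precursor of nucleotides, each fell by 1.71, in the opposite direction to Rpia. Galm (at least 2.64-fold), Pgam2 (at least 2.55-fold, detected on 1 of 3 SSC arrays), Fbp2 (at least 2.31-fold) and Pdk4 (at least 2.01-fold) were lower and, apart from Pgam2, undetected in SSC. These bounds hold under this background correction only. In the authors' processed table Pgam2 differed by −0.51, smaller in size than its bound of 1.35 on the log2 scale. Hif1a, which encodes the hypoxia-inducible subunit, was measured at 5.57 in ESC and 5.73 in SSC and did not pass the test (0.17 ± 0.14, adjusted p = 0.296). No probe of Myc or Mycn passed the detection filter.

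The authors' processed table gave the same sign for all 28 genes. In it, 19 were called lower and 8 higher, with 36.3% and 37.7% of all genes called so, 14 of the 19 fell at least 2-fold, against 7.18% of all genes, and 1 of the 8 rose at least 2-fold, against 8.28%. The median difference there was −0.81. Dim probes differed by less there: Eno2 by −1.15 and Pfkp by −2.92, against −2.36 and −4.60 here, while Ldha stood at −2.65 and Aldoa at −2.04, close to the values here. In the deposited unnormalized brightness, group means were lower in SSC for 20 of the 28 genes and higher for 8.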

How the data were processed

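Arrays were 1-colour Illumina bead arrays of 45281 probes. The deposited unnormalized table holds 1 linear intensity per probe and array, with background included, and the deposited table also gives a detection p-value for each; GenomeStudio is named per the submitters' processing notes. The authors' processed intensity values share 1 distribution across arrays, with medians of 107.09 to 107.14, made by steps that the sources used here do not give. No value column was left without a sample. Precision is limited by the 3 arrays per group. Detection counted 15242 to 15613 probes per ESC array and 16505 to 17211 per SSC array, and arrays correlated at 0.989 to 0.993 within groups and 0.784 to 0.795 between them.

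Intensities were corrected by normexp (offset 16, background estimated through the detection p-values), quantile normalized and log2 transformed in limma 3.58.1 (R 4.3.3). The 17435 probes with detection p under 0.01 on at least 3 arrays entered lmFit and eBayes with no covariate, with Benjamini-Hochberg adjustment over all of them. The brightest kept probe stood for a gene. Symbols came from the platform annotation (34885 probes with 1 symbol, 18 with several, 10378 unnamed here), updated by gene identifier through RefSeq (GRCm38.p6). Isoenzyme ratios were compared by exact permutation.

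The members, lists, pairs and the rule for named genes were chosen with earlier results of these data known. That rule names or counts every member, gives other kept probes where they differ by over 1 or in their call, and names up to 12 further pathway genes of the largest called difference. Hif1a, Myc and Mycn were named besides, after their values were seen. The alternatives are given in the closing section.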

Additional observations from a re-analysis of the deposited data

How the results depend on the processing

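Over 18 alternatives, 23 of the 28 genes kept their direction and their side of the threshold in every alternative that measured them; Slc2a3 and Rpe give no value where detection on all 6 arrays is required or an array of their bright group is left out. The sign of Gapdh turned to −0.44 and that of Eno3 to 0.084 under scaling on array medians, a scaling that moved the median of all genes from 0.0036 to 0.19. The cause was not tested. Pgk1 and Pdhb lost their call and Pfkm, Gapdh and Eno3 gained one in some alternatives. The ratio of Slc2a1 to Slc2a3 turned to −0.31 without background correction and in the authors' processed table. The median difference of the 28 genes, −1.36, was −0.81 without background correction and in the authors' processed table, −1.02 with an offset of 50, −1.13 under scaling on array medians and −0.73 with the mean of kept probes; it was −0.54 without a filter, where 33 genes were included. Detection on all 6 arrays left 4 of the other pathway genes called higher in place of 7. Leaving out each replicate gave 5 to 7 genes higher, 17 to 18 lower and a median of −1.38 to −1.27. Same-numbered samples of the 2 groups did not deviate together (correlations −0.140 to 0.0303), and with the replicate number as a block 7 genes were higher and 18 lower, as without it. Signal near background limits Hk1, Ldhb, Rpe, the SSC values of Pfkp and Eno2, and the bounds.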
